A study of Macaca mulatta with 20 samples.

Results

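Mid-late corpora lutea of the rhesus macaque, collected 10 to 12 days after the surge of luteinizing hormone, were compared with early corpora lutea, collected 3 to 5 days after it. The comparison holds 8 of the 20 arrays of the series, 4 per stage, taken by the stage in their titles, with 1 corpus luteum on each array. All came from females cycling normally, in natural cycles, and the labels name no drug, hormone treatment or genetic change in any group. The age of the animals, and whether each corpus luteum came from a different animal, are not given in the sources used here, so the p-values measure the spread between corpora lutea. The surge was dated from serum estradiol measured each day, and the gland was removed at surgery and frozen at once. Per the labels, the early tissue is still forming from the ovulated follicle, and the mid-late tissue still secretes progesterone in quantity but is close to the time when regression begins without a pregnancy. The other 12 arrays, 4 each from the mid stage (days 7 to 8), the late stage (days 14 to 16) and the very-late stage (days 18 to 19), entered the fit and give the neighbouring levels. RNA came from the whole gland, in which fewer cells of a type and less RNA per cell cannot be told apart.

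The corpus luteum forms when granulosa and theca cells of the follicle stop dividing, enlarge and turn to steroid synthesis while capillaries grow in among them. It takes up cholesterol from lipoproteins, moves it into the mitochondrion and converts it to progesterone, and in primates it also makes estrogens, inhibin and relaxin. Around ovulation the follicle wall makes clotting factors, proteases and their inhibitors, and proteins of the matrix around the oocyte.

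Levels are log2 values after RMA (robust multi-array average), so that a difference of 1 is 2-fold, and array values are listed in the order of replicates 1 to 4. Array medians were 3.89 to 3.94 on the 8 arrays, and arrays correlated across probe sets at r = 0.984 to 0.989 among the early arrays, 0.989 to 0.995 among the mid-late arrays and 0.975 to 0.987 between the stages; probe sets are not independent replicates. As background, 683 probe sets for viral genomes had a median of 3.42 and a 95th percentile of 4.30. The signal of GAPDH at its 3′ end exceeded that at its 5′ end by 1.33 to 1.78 on the early arrays and by 1.19 to 1.25 on the mid-late arrays. These ranges did not overlap, and the bearing of this on the comparison was not tested. For actin the same excess was 0.223 to 0.523 early and 0.112 to 0.285 mid-late, with overlap. Early replicate 4 and mid-late replicate 1 stood apart on the 6 probe sets of the mitochondrial genome, with means of 7.02 and 8.12 against 11.75 to 12.45 on the other 6 arrays. Results were therefore also computed without these 2 arrays, 1 from each stage. A further fit kept only the arrays high in these probe sets, which leaves out the same 2 arrays and also all 4 mid arrays and very-late replicate 2. Both fits give the same difference from the same 6 arrays and differ in the arrays that set the spread.

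The tissue label was checked against markers. STAR, which carries cholesterol into the mitochondrion, lay at 13.03, 13.13, 13.27 and 13.36 on the early arrays and at 13.51, 13.38, 13.19 and 13.30 on the mid-late arrays. HSD3B2, which turns pregnenolone into progesterone, lay at 11.85, 11.93, 12.09 and 12.13 early and at 11.42, 11.79, 10.91 and 11.47 mid-late. The α subunit of inhibin, INHA, lay at 11.52, 11.83, 11.91 and 11.63 early and at 12.35, 12.15, 12.22 and 12.22 mid-late. All 3 stood far above background on all 8 arrays. Markers of endothelium (0 of 12 measured), pericytes and smooth muscle (0 of 7) and fibroblasts (1 of 9) were mostly above background, with mean levels of 7.49 and 7.74, 8.19 and 8.10, and 7.78 and 7.77 early and mid-late. All 5 measured markers of neutrophils, 3 of 4 of B cells and 4 of 9 of the surface epithelium had means under the 95th percentile of the viral probe sets.

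Of 52707 probe sets, 1964 (3.73%) passed the test at an adjusted p under 0.05 (limma, Benjamini-Hochberg over all probe sets), 855 higher (1.62%) and 1109 lower (2.10%) at mid-late. Taken as 14132 genes, each by its brightest probe set, 892 passed (6.31%), with 248 higher (1.75%) and 644 lower (4.56%). Falls outnumbered rises among these genes, but at 2-fold or more the numbers were close: 158 genes passed at that size (1.12%), 77 higher (0.545%) and 81 lower (0.573%). Over probe sets, which include those without a gene symbol, the balance at 2-fold or more was the other way, with 247 higher and 153 lower. The 4 arrays of the stages did not overlap for 2442 genes (17.3%), and for 147 of the 158 genes that changed at least 2-fold. The largest rise was that of the hormone RLN2 and the largest fall with separate groups that of the clotting initiator F3. Without early replicate 4 and mid-late replicate 1, 617 probe sets passed, and 66 of the 158 genes, 25 of the rises and 41 of the falls. On the arrays high in mitochondrial probe sets 1363 passed, 748 higher and 615 lower. Of the 71 named genes called, 29 passed in the first of these fits, 52 in the second and 27 in both. Without mid-late replicate 3, 806 probe sets passed. Leaving out early replicate 3 left 1016 calls, early replicate 4 left 1228, mid-late replicate 1 left 1132 and mid-late replicate 4 left 1079.

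**Figure D1:**
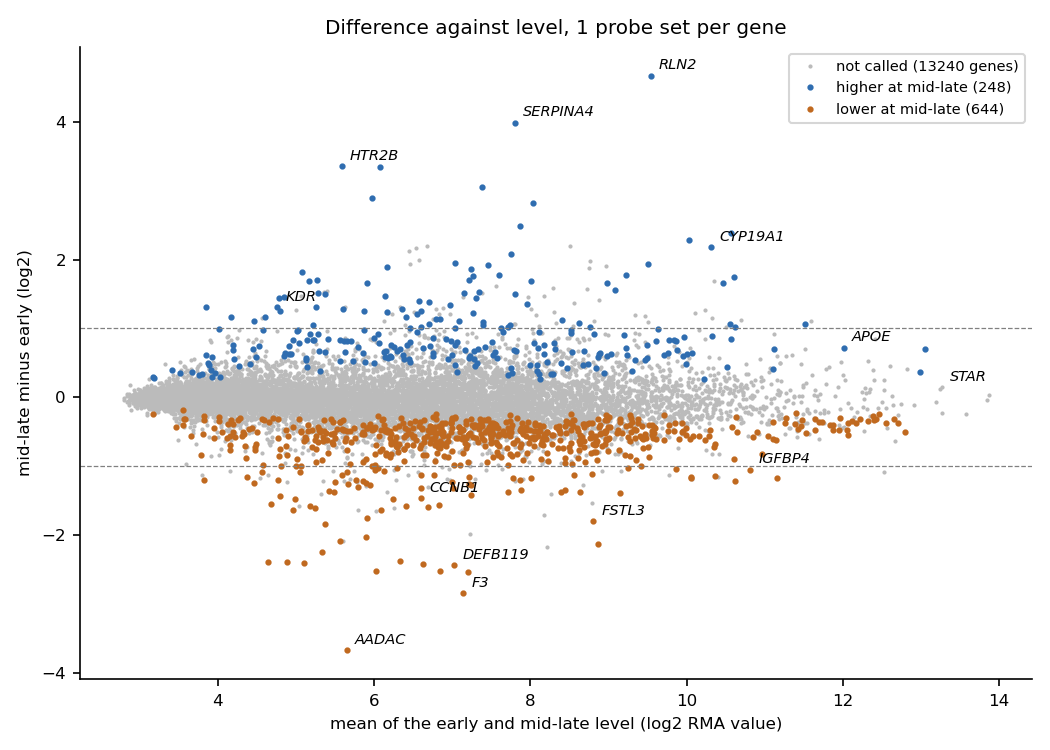
Mid-late minus early difference (log2, vertical axis) against the mean level of the 2 stages (log2 RMA value, horizontal axis) for 14132 genes, 1 probe set each. Blue points are the 248 genes called higher at mid-late, orange points the 644 called lower and grey points genes that did not pass; the dashed lines mark 2-fold.

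Genes for hormones, their receptors and related signals held some of the largest rises. RLN2, the hormone relaxin, rose 25.4-fold. HTR2B, a serotonin receptor, went from background to a mean of 7.26, and IL11RA, the receptor chain that binds interleukin 11, rose 5.58-fold. Of the 16 measured members of a list of gonadotropin and other hormone receptors, 3 rose and 0 fell, beside 1.75% and 4.56% of all genes, and 2 rose without early replicate 4 and mid-late replicate 1. This and the other gene lists were chosen with earlier results of these data known, so their counts beside such shares are descriptive and test nothing.

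RLN2 lay at 7.88, 9.44, 4.94 and 6.57 on the early arrays and at 11.75, 11.32, 12.43 and 11.98 on the mid-late arrays. The early arrays spread widely, with replicate 2 highest and replicate 3 lowest, yet all 4 lay below the mid-late arrays, which kept closer together. The difference was 4.67 ± 1.20 (SE, n = 4 per stage, adjusted p = 0.0371 in limma), and 4.49 without early replicate 4 and mid-late replicate 1 (adjusted p = 0.164, or 0.0166 on the arrays high in mitochondrial probe sets). HTR2B lay at 4.12, 3.97, 3.56 and 3.98 early, all 4 arrays below the 95th percentile of the viral probe sets, and at 7.73, 6.69, 7.55 and 7.09 mid-late, where all 4 lay well above it. Because the early level has only an upper bound, the rise is given as at least 7.80-fold, the mid-late mean against that percentile (fitted difference 3.36 ± 0.48, adjusted p = 0.00158 in limma). This bound and those given below compare means and leave out their sampling error. The 95% interval of the fitted difference of HTR2B was 2.36 to 4.36. IL11RA lay at 6.70, 7.83, 6.28 and 5.71 early and at 9.30, 8.84, 9.17 and 9.12 mid-late. Again early replicate 2 came closest to the mid-late arrays, without reaching them, and the difference was 2.48 ± 0.37 (adjusted p = 0.00191 in limma), called on 1 of its 2 probe sets.

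PRLR, the prolactin receptor, lay at 5.84, 6.26, 5.29 and 6.42 early and at 7.13, 7.41, 7.11 and 6.99 mid-late. Its groups did not overlap, and the difference of 1.21 ± 0.33 was just past the threshold (adjusted p = 0.0491 in limma), with 2 of its 5 probe sets called. ADIPOR2, a receptor for adiponectin, lay at 9.11, 9.58, 9.27 and 8.87 early and at 9.56, 9.71, 9.89 and 9.96 mid-late. Early replicate 2 lay inside the mid-late range, so the groups overlapped although the test passed (0.57 ± 0.13, adjusted p = 0.0165 in limma). BTC, betacellulin, a ligand of the epidermal growth factor receptor that the follicle makes at ovulation, lay at 4.31, 4.70, 4.11 and 4.18 early and at 6.50, 6.50, 5.51 and 5.55 mid-late. Its early arrays were close to background and its mid-late arrays fell into a higher and a lower pair, all above the early ones (difference 1.69 ± 0.37, adjusted p = 0.0150 in limma). PGR, the progesterone receptor, and RXFP1, the receptor of relaxin, stood at means of 3.77 and 3.43 early and 3.56 and 3.36 mid-late, under the 95th percentile of the viral probe sets at both stages. INSL4, a relaxin relative, was bright at both stages, with means of 11.05 and 10.90 (adjusted p = 0.354). RXFP1, INSL4 and the other uncalled list members outside the rule for named genes were chosen after their values were seen. HTR2B and IL11RA passed in all 8 fits that left out 1 array and without early replicate 4 and mid-late replicate 1. RLN2 passed in 1 of the 8, that without early replicate 2 (adjusted p = 0.0263 to 0.132 over the 8), PRLR in 0 (adjusted p = 0.0520 to 0.170), BTC failed without early replicate 3 or mid-late replicate 1 (adjusted p = 0.0209 to 0.0536), and ADIPOR2 without early replicate 4 or mid-late replicate 3 or 4 (adjusted p = 0.00389 to 0.0648).

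Other large rises were genes of signals and membranes. ENPP2, autotaxin, which makes the signalling lipid lysophosphatidic acid, lay at 9.74, 10.68, 7.97 and 9.10 early and at 11.88, 11.58, 11.92 and 11.66 mid-late. The mid-late arrays stood within a narrow band that the early arrays did not reach, and ENPP2 rose by 2.39 ± 0.55 (adjusted p = 0.0222 in limma), with all 3 of its probe sets called higher. OPN3, an opsin expressed outside the eye, lay at 4.62, 5.51, 3.70 and 3.76 early and at 7.87, 6.50, 8.44 and 8.16 mid-late, a rise of 3.34 ± 0.72 (adjusted p = 0.0149 in limma). WLS, which carries WNT proteins to the cell surface, lay at 9.03, 9.16, 7.78 and 8.16 early and at 11.01, 10.48, 10.21 and 10.20 mid-late, a rise of 1.94 ± 0.48 (adjusted p = 0.0310 in limma). In both genes the mid-late arrays lay above every early array. TLCD4, a membrane protein with a TLC domain, lay at 6.44, 8.48, 5.75 and 5.84 early and at 8.84, 9.42, 9.79 and 9.76 mid-late. Early replicate 2 was far above the other 3 and close to the lowest mid-late array, and the rise was 2.83 ± 0.46 (adjusted p = 0.00309 in limma), with 2 of its 3 probe sets called. LRRC17, a secreted leucine-rich repeat protein, rose by 1.92 ± 0.50 (adjusted p = 0.0405 in limma). LOC699035, listed as a pseudogene in the gene table, lay at 9.11, 9.52, 7.65 and 9.27 early and at 12.02, 10.60, 11.35 and 10.74 mid-late, and rose by 2.29 ± 0.58 (adjusted p = 0.0344 in limma). TLCD4 passed in all 8 fits without 1 array. OPN3 failed without early replicate 3 or mid-late replicate 3, ENPP2 in 5 of the 8 fits and WLS, LRRC17 and LOC699035 in 6 of the 8 each, early replicates 3 and 4 and mid-late replicates 1, 3 and 4 among them (adjusted p = 0.0289 to 0.129 for LRRC17). Of these 6 genes TLCD4 passed without both early replicate 4 and mid-late replicate 1, and all 6 on the arrays high in mitochondrial probe sets.

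Among the 15 largest rises, early replicate 2 was the highest early array for 13 and early replicate 3 or 4 the lowest for all 15. Among the 15 largest falls, early replicate 4 was the highest early array for 9, and mid-late replicate 4 the highest mid-late array for 9. Over the 77 rises and 81 falls of at least 2-fold, early replicate 2 was the highest early array for 41 of the rises, and early replicate 4 for 40 of the falls. The labels do not give the day of each corpus luteum within its stage.

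**Figure D2:**
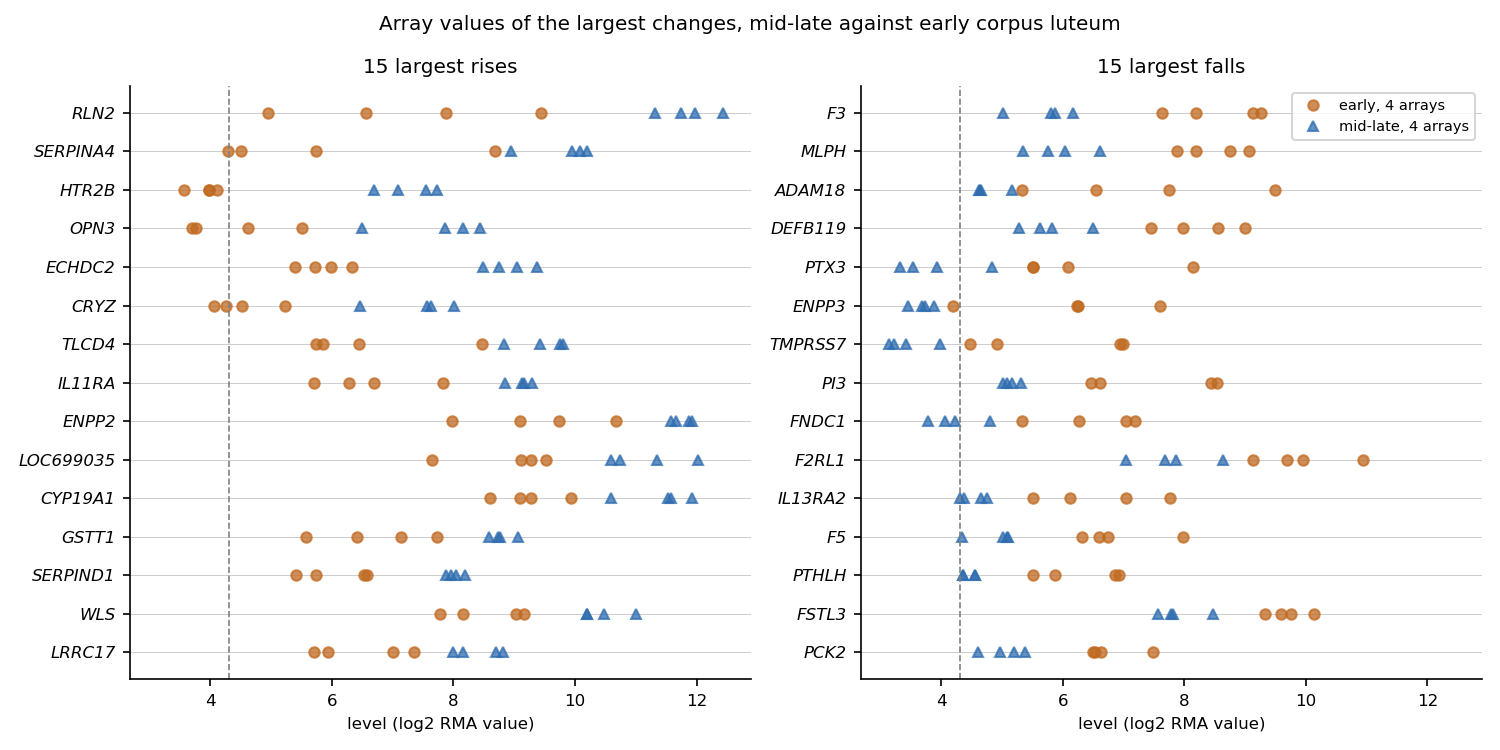
Log2 RMA level (horizontal axis) of the 15 genes with the largest rises and the 15 with the largest falls, each point 1 array: orange circles are the 4 early and blue triangles the 4 mid-late arrays. The dashed line is the 95th percentile of the viral probe sets, 4.30. The groups are separate in every row because the genes were chosen that way. The spread of the early arrays for RLN2 and SERPINA4 can be set beside the tight mid-late arrays.

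Among 18 measured genes of steroid synthesis, CYP19A1 was called higher and CYB5A lower, beside 1.75% and 4.56% of all genes. The median difference was -0.21 beside -0.03 over all genes tested. At an unadjusted p under 0.05 in limma, 4 of the 18 were higher and 6 lower, beside 1096 and 2091 of the 14132 genes. The stages did not overlap for 10 of the 18, beside 17.3% of all genes. CYP19A1, the aromatase that makes estrogens from androgens, lay at 9.28, 9.94, 9.10 and 8.60 early and at 11.92, 10.60, 11.58 and 11.53 mid-late. Mid-late replicate 2 was lower than the other 3 mid-late arrays but still above every early array, and CYP19A1 rose by 2.18 ± 0.47, or 4.52-fold (adjusted p = 0.0138 in limma). CYB5A, cytochrome b5, lay at 10.92, 11.53, 11.44 and 11.89 early and at 10.93, 10.88, 10.70 and 10.82 mid-late. Here the lowest early array lay among the mid-late arrays, so the groups overlapped, and CYB5A fell by 0.61 ± 0.16 (adjusted p = 0.0363 in limma). Without mid-late replicate 3 CYP19A1 did not pass (adjusted p = 0.0127 to 0.0503 over the 8 fits), and CYB5A failed in 7 of the 8, all but that without early replicate 1 (adjusted p = 0.00440 to 0.117). Neither passed without early replicate 4 and mid-late replicate 1 (1.80 and -0.50, adjusted p = 0.124 and 0.153) or on the arrays high in mitochondrial probe sets (adjusted p = 0.0823 and 0.140).

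STAR and HSD3B2, which serve progesterone synthesis, and INHA were not called, and CYP11A1, the first enzyme of the pathway, had no probe set of 1 symbol. STAR differed by 0.15 ± 0.38 (95% interval -0.64 to 0.94, adjusted p = 0.926), with overlapping groups. HSD3B2 was at -0.60 ± 0.37 (95% interval -1.39 to 0.18, adjusted p = 0.506), and all 4 mid-late arrays lay below all 4 early arrays. INHA was at 0.51 ± 0.50 (95% interval -0.54 to 1.56, adjusted p = 0.738), with all 4 mid-late arrays above the early ones. These errors come from 1 spread per probe set over all 5 stages. At the very-late stage the SD was 1.26 for STAR and 1.69 for INHA, against 0.15 and 0.18 at the early and 0.13 and 0.08 at the mid-late stage. INHA passed the test only in the fits without the very-late arrays and on the 8 arrays alone; HSD3B2 and STAR passed in neither. CYP17A1, which makes androgens and marks theca cells, lay at 7.74, 7.94, 6.22 and 6.43 early and at 7.69, 7.22, 7.15 and 7.78 mid-late, with overlapping groups (adjusted p = 0.881). NR5A1 and NR5A2, nuclear receptors that drive steroid genes, were at -0.44 ± 0.15 and 0.91 ± 0.43 and did not pass (adjusted p = 0.113 and 0.322).

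Cholesterol handling moved in several named genes. Of 13 measured genes of uptake, storage and efflux, 3 rose and 1 fell, beside 1.75% and 4.56% of all genes (median difference 0.13). LCAT, which esterifies cholesterol on lipoproteins, lay at 7.38, 7.66, 6.13 and 7.03 early and at 8.75, 8.24, 8.64 and 8.57 mid-late. Early replicate 3 was lowest by a wide margin, all early arrays lay under the mid-late ones, and LCAT rose by 1.50 ± 0.22 (adjusted p = 0.00191 in limma). APOE, an apolipoprotein that carries cholesterol out of cells, lay at 11.40, 11.89, 11.71 and 11.59 early and at 12.57, 12.16, 12.35 and 12.40 mid-late, a rise of 0.72 ± 0.13 (adjusted p = 0.00551 in limma) on an already high level, with all 3 of its probe sets called higher. The ubiquitin ligase MYLIP rose by 0.72 ± 0.15 (adjusted p = 0.0134 in limma), called on 2 of its 3 probe sets, the weakest at 0.18. LPCAT3, which remodels phospholipids, fell from 9.05 ± 0.33 (SD, n = 4) to 8.16 ± 0.17, by 0.88 ± 0.20 (adjusted p = 0.0197 in limma). ABCA1, the cholesterol exporter, lay at 3.66, 3.66, 3.81 and 3.60 early and at 3.69, 3.69, 3.68 and 3.66 mid-late, under the 95th percentile of the viral probe sets throughout.

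Of 16 measured genes of cholesterol synthesis, 1 rose and 2 fell, beside 1.75% and 4.56% of all genes (median difference -0.14). STARD4, which moves cholesterol through the cytosol, lay at 7.36, 7.97, 7.50 and 7.79 early and at 8.31, 8.46, 8.38 and 8.59 mid-late, a rise of 0.78 ± 0.16 (adjusted p = 0.0126 in limma) with separate groups. PMVK, an enzyme of the mevalonate pathway, lay at 6.95, 7.25, 7.08 and 7.56 early and at 6.52, 6.65, 6.26 and 6.48 mid-late, and fell by 0.73 ± 0.14 (adjusted p = 0.00929 in limma). SREBF2, the transcription factor that turns on the pathway, fell by 0.41 ± 0.10 (adjusted p = 0.0331 in limma), called on 2 of its 4 probe sets, the weakest at -0.095. LCAT and STARD4 passed in all 8 fits without 1 array and without early replicate 4 and mid-late replicate 1. APOE and PMVK passed in the 8 but not without the pair (adjusted p = 0.0549 and 0.0651; 0.0641 and 0.0114 on the arrays high in mitochondrial probe sets), LPCAT3 and SREBF2 failed in 5 and 7 of the 8, among them those without early replicates 3 and 4 and mid-late replicates 1, 3 and 4, and MYLIP failed without mid-late replicate 4.

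In metabolism 1 to 3 genes of each list were called. ECHDC2, which belongs with the enoyl-CoA hydratases of mitochondria, lay at 5.72, 6.33, 5.98 and 5.39 early and at 9.37, 9.04, 8.74 and 8.48 mid-late. More than 2 log2 units separated the groups, and ECHDC2 rose by 3.05 ± 0.47, or 8.31-fold (adjusted p = 0.00234 in limma). CRYZ, a quinone reductase, lay at 4.52, 5.24, 4.26 and 4.07 early and at 6.46, 8.01, 7.56 and 7.64 mid-late, a rise of 2.89 ± 0.44 (adjusted p = 0.00211 in limma). GSTT1, a glutathione transferase, lay at 7.13, 7.72, 6.42 and 5.57 early and at 8.59, 8.73, 8.77 and 9.06 mid-late. Early replicate 4 was the lowest and early replicate 2 the nearest to the mid-late arrays, none of which it reached, and GSTT1 rose by 2.08 ± 0.40 (adjusted p = 0.00800 in limma). PCK2, the mitochondrial phosphoenolpyruvate carboxykinase, lay at 6.52, 6.50, 7.49 and 6.62 early and at 4.61, 5.38, 4.96 and 5.21 mid-late, and fell by 1.75 ± 0.30 (adjusted p = 0.00445 in limma) with early replicate 3 above the other 3. All 4 genes passed in each of the 8 fits without 1 array and without early replicate 4 and mid-late replicate 1.

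The lists of fatty acid oxidation, respiratory chain, glycolysis and antioxidant genes held 2, 1, 3 and 1 calls, beside 6.31% of all genes called. Of 14 measured genes of fatty acid oxidation ECHDC2 rose and ETFB, part of the electron transfer flavoprotein, fell by 0.61 ± 0.09 (adjusted p = 0.00240 in limma; median difference 0.02). ETFB lay at 9.87, 9.87, 9.95 and 9.96 early and at 9.43, 9.46, 9.05 and 9.27 mid-late, with the early arrays within a band of 0.1. It was called on 1 of its 2 probe sets, the other at -0.62. Of 16 genes of the respiratory chain and ATP synthase UQCRC2, a core protein of complex III, rose by 0.88 ± 0.21 (adjusted p = 0.0284 in limma; median 0.05), which held in 1 of the 8 fits without 1 array, that without mid-late replicate 2. Of 20 genes of glycolysis PFKFB3, which makes an activator of glycolysis, rose from a level under background, at least 1.16-fold (fitted difference 0.99 ± 0.17, adjusted p = 0.00406 in limma). PFKFB3 and ETFB passed in all 8 fits without 1 array. The glucose carrier SLC2A1 fell by 0.48 ± 0.11 (adjusted p = 0.0224 in limma) and the aldolase ALDOA fell by 0.50 ± 0.13 (adjusted p = 0.0383 in limma; median of the list -0.21). SLC2A1 failed without early replicate 3 or 4 or mid-late replicate 3 or 4, and ALDOA in 7 of the 8 fits, all but that without early replicate 2. ALDOA was called on 1 of its 2 probe sets, the other at -0.49. SLC2A1 was called on 1 of its 2 probe sets, the other differing by 0.11 in the opposite direction. It did not pass on the mean of its probe sets. Of 18 antioxidant genes CRYZ alone was called (median -0.04).

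Genes of clotting, proteolysis and protease inhibition moved in both directions. F3, tissue factor, fell 7.17-fold, and with it fell F5, F2RL1, PLAUR and PLAU. Protease inhibitors went both ways: PI3 and SERPING1 fell, and SERPINA4 and SERPIND1 rose. F3, which starts blood clotting, lay at 7.64, 8.20, 9.26 and 9.13 early and at 5.02, 5.80, 5.87 and 6.17 mid-late. More than 1.4 log2 units lay between the groups, and F3 fell by 2.84 ± 0.35 (adjusted p = 0.000746 in limma). F5, the clotting cofactor factor V, lay at 6.31, 6.75, 6.59 and 7.98 early and at 4.34, 5.11, 5.08 and 5.01 mid-late. Early replicate 4 was the highest and mid-late replicate 1 the lowest, the 2 arrays low in mitochondrial probe sets, and F5 fell by 2.03 ± 0.37 (adjusted p = 0.00593 in limma). F2RL1, a receptor that proteases activate, lay at 9.13, 9.96, 9.69 and 10.94 early and at 7.69, 7.04, 7.86 and 8.63 mid-late, and fell by 2.12 ± 0.55 (adjusted p = 0.0396 in limma). F5 and F2RL1 were each called on 1 of their 2 probe sets, the others at -0.84 and -1.76.

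PI3, elafin, an inhibitor of elastase, lay at 8.54, 6.62, 6.46 and 8.45 early and at 5.08, 5.02, 5.16 and 5.32 mid-late. Its early arrays formed a high pair, replicates 1 and 4, and a low pair, while the mid-late arrays were much closer together, and PI3 fell by 2.37 ± 0.39 (adjusted p = 0.00308 in limma). TMPRSS7, a membrane serine protease, lay at 4.48, 6.93, 4.92 and 6.99 early and at 3.15, 3.23, 3.42 and 3.98 mid-late, where its mean was under background. Early replicates 2 and 4 were far above the other 2, and the fall was at least 2.88-fold (fitted difference -2.38 ± 0.41, adjusted p = 0.00427 in limma). PLAUR, the urokinase receptor, lay at 6.92, 6.24, 6.20 and 8.26 early and at 5.69, 5.03, 5.26 and 5.08 mid-late, and fell by 1.64 ± 0.41 (adjusted p = 0.0306 in limma), and its ligand PLAU fell by 0.82 ± 0.22 (adjusted p = 0.0459 in limma). PLAUR was called on 2 of its 3 probe sets and PLAU on 1 of 2. F3, F5, PI3 and TMPRSS7 passed in all 8 fits without 1 array, F2RL1, PLAUR and PLAU in 2, 3 and 1 of them, with failures without early replicate 4 and mid-late replicates 2 and 3 among others. Without both early replicate 4 and mid-late replicate 1, F3 (-2.42), PI3 (-2.04) and TMPRSS7 (-1.90) still passed and F5 did not (-1.49, adjusted p = 0.0539). On the arrays high in mitochondrial probe sets F5 passed (adjusted p = 0.000794) and TMPRSS7 did not (adjusted p = 0.0507).

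SERPINA4, the protease inhibitor kallistatin, lay at 5.75, 8.69, 4.29 and 4.51 early and at 8.95, 10.08, 10.20 and 9.95 mid-late. Early replicate 2 stood 0.26 below the lowest mid-late array, and the other 3 early arrays far lower; the rise was 3.99 ± 0.91 (adjusted p = 0.0194 in limma). SERPIND1, heparin cofactor II, an inhibitor of thrombin, lay at 5.75, 6.58, 5.40 and 6.54 early and at 8.19, 8.04, 7.96 and 7.87 mid-late. The mid-late arrays were close together above all early arrays, and SERPIND1 rose by 1.95 ± 0.36 (adjusted p = 0.00637 in limma). SERPING1, which inhibits the first complement component, fell by 0.91 ± 0.18 (adjusted p = 0.00860 in limma). Thus 2 of 14 measured serpins rose and 1 fell, beside 1.75% and 4.56% of all genes (median -0.20). SERPIND1 and SERPING1 passed in all 8 fits without 1 array, and SERPINA4 failed without early replicate 3 or 4 or mid-late replicate 3 or 4 (adjusted p = 0.00351 to 0.0736). SERPINA4 was called on 1 of its 2 probe sets, the other differing by 0.03. Of the 3 serpins SERPIND1 passed without early replicate 4 and mid-late replicate 1, and SERPIND1 and SERPINA4 on the arrays high in mitochondrial probe sets.

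Of 19 measured genes that the follicle turns on at ovulation, 5 fell (F3, PTX3, PLAUR, RUNX1 and PLAU) and BTC rose, beside 4.56% and 1.75% of all genes. The median difference was -0.45. PTX3, a pentraxin of the matrix around the oocyte, lay at 5.52, 6.08, 5.51 and 8.14 early and at 3.32, 3.54, 3.92 and 4.83 mid-late. Early replicate 4 was 2 log2 units above the other early arrays and mid-late replicate 4 above the other mid-late arrays, without overlap, and the fall was at least 4.03-fold (fitted difference -2.41 ± 0.45, adjusted p = 0.00645 in limma). Without early replicate 4 and mid-late replicate 1 the difference was -1.60 (adjusted p = 0.0223). Other members of the list stayed bright at both stages. AREG, amphiregulin, had means of 11.66 and 11.68, ADAMTS1, a matrix protease, was at -0.45 ± 0.36 and VCAN, the proteoglycan versican, at -0.55 ± 0.30, none of them called (adjusted p = 0.993, 0.655 and 0.420). The mean level of the 19 genes was 7.38 to 7.89 on the early arrays, highest on replicate 4, and 6.85 to 7.15 on the mid-late arrays. Without early replicate 4 and mid-late replicate 1, 2 of the 19 genes were called, and 4 or 5 in the 8 fits without 1 array, against 6 with all arrays.

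Of 28 measured genes of inhibin, activin, TGF-β and BMP signalling, 2 fell and 0 rose (median difference 0.09), a share called close to the 6.31% of all genes. At an unadjusted p under 0.05 in limma, 5 were higher and 5 lower. FSTL3, which binds and blocks activin, lay at 9.76, 9.32, 10.14 and 9.59 early and at 7.78, 8.48, 7.56 and 7.81 mid-late. Mid-late replicate 2 was higher than the other 3 and still 0.84 below the lowest early array, and FSTL3 fell by 1.79 ± 0.21, or 3.46-fold (adjusted p = 0.000614 in limma). BAMBI, a decoy receptor for BMPs and activin, lay at 6.07, 5.00, 6.08 and 7.03 early and at 4.87, 4.51, 4.17 and 4.23 mid-late. Early replicate 2 lay just above the mid-late range and early replicate 4 far above the others, and BAMBI fell by 1.60 ± 0.34 (adjusted p = 0.0138 in limma). FST, follistatin, another activin antagonist, did not pass at -1.04 ± 0.36 (adjusted p = 0.129), and INHBA, the βA subunit of inhibin and activin, was at 0.13 ± 0.51 (adjusted p = 0.955). FSTL3 passed in every fit without 1 array and without early replicate 4 and mid-late replicate 1 (-1.79, adjusted p = 0.00599), and BAMBI failed without mid-late replicate 3 and without the pair (adjusted p = 0.0527; 0.0301 on the arrays high in mitochondrial probe sets).

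Several other secreted proteins and receptors fell. DEFB119, a beta-defensin, lay at 7.45, 8.55, 7.99 and 9.0 early and at 5.28, 5.82, 5.63 and 6.50 mid-late. The groups were separate by nearly 1 log2 unit, both of its probe sets were called lower, and DEFB119 fell by 2.44 ± 0.32 (adjusted p = 0.000992 in limma). It was the only call among 8 measured beta-defensins (4 above and 4 below 0), beside 6.31% of all genes. DEFB122, bright at a mean of 10.66 early, was at -1.19 ± 0.44 with separate groups and did not pass (adjusted p = 0.169 in limma). PTHLH, the parathyroid hormone-related protein, lay at 5.87, 5.51, 6.85 and 6.93 early and at 4.36, 4.55, 4.36 and 4.55 mid-late, and fell by 1.83 ± 0.27 (adjusted p = 0.00196 in limma), called on 2 of its 3 probe sets, the weakest at -0.24. IL13RA2, a decoy receptor for interleukin 13, lay at 7.05, 5.51, 6.11 and 7.77 early and at 4.32, 4.38, 4.65 and 4.76 mid-late, and fell by 2.08 ± 0.33 (adjusted p = 0.00269 in limma). For both, the mid-late arrays were within 0.5 of each other while the early arrays ranged over more than 1.4.

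MLPH, melanophilin, which links vesicles to the actin skeleton, lay at 7.88, 8.19, 9.07 and 8.75 early and at 5.76, 6.61, 5.34 and 6.04 mid-late, and fell by 2.53 ± 0.36 (adjusted p = 0.00158 in limma). ENPP3, an ectoenzyme that splits nucleotides, lay at 6.26, 6.24, 4.20 and 7.59 early and at 3.46, 3.69, 3.88 and 3.73 mid-late. Early replicate 3 was under background, as were all the mid-late arrays, and early replicate 4 was highest. The early mean stood 3.41-fold above background (fitted difference -2.38 ± 0.42, adjusted p = 0.00490 in limma). FNDC1, a protein with fibronectin domains, lay at 7.04, 6.27, 5.33 and 7.19 early and at 4.06, 3.77, 4.23 and 4.81 mid-late, a fall of at least 4.46-fold (fitted difference -2.24 ± 0.56, adjusted p = 0.0313 in limma). ADAM18, of the ADAM family of membrane proteins, lay at 9.50, 6.55, 5.33 and 7.75 early and at 4.64, 4.65, 4.62 and 5.17 mid-late. Early replicate 1 exceeded early replicate 3 by more than 4 log2 units, the latter just above the mid-late range, and ADAM18 fell by 2.51 ± 0.68 (adjusted p = 0.0458 in limma), with 1 of its 2 probe sets called. DEFB119, PTHLH, IL13RA2, MLPH and ENPP3 passed in all 8 fits without 1 array and without early replicate 4 and mid-late replicate 1. FNDC1 passed in 2 of the 8 (adjusted p = 0.0276 to 0.0963) and ADAM18 in 1, that without early replicate 3 (adjusted p = 0.0171 to 0.120).

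Genes of cell division were called in the downward direction. Of 17 measured genes of mitosis 5 fell and 0 rose, and of 19 genes of DNA replication 7 fell and 0 rose; the medians were -0.57 and -0.29 beside -0.03 over all genes tested, of which 4.56% were called lower. CCNB1, the cyclin of entry into mitosis, lay at 7.08, 7.68, 7.53 and 7.02 early and at 5.82, 6.19, 5.55 and 5.89 mid-late. Every mid-late array lay at least 0.8 below every early array, and CCNB1 fell by 1.46 ± 0.23, or 2.76-fold (adjusted p = 0.00238 in limma). CCNB2 fell from 6.66 ± 0.42 (SD, n = 4) to 5.60 ± 0.17 (adjusted p = 0.0174 in limma). AURKA, a kinase of the spindle, lay at 5.62, 5.70, 5.67 and 5.23 early and at 5.00, 5.01, 4.72 and 5.01 mid-late, and fell by 0.62 ± 0.12 (adjusted p = 0.00655 in limma). AURKA was called on 1 of its 3 probe sets, whose differences ran from -0.62 to -0.08.

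Among replication genes UHRF1, which maintains DNA methylation on new strands, lay at 4.82, 5.59, 5.91 and 6.05 early and at 4.29, 4.74, 4.46 and 4.58 mid-late, and fell by 1.08 ± 0.23 (adjusted p = 0.0126 in limma). TYMS, which makes thymidylate, lay at 8.25, 8.36, 8.46 and 7.78 early and at 7.01, 7.35, 7.24 and 7.31 mid-late, and fell by 0.98 ± 0.22 (adjusted p = 0.0160 in limma). MCM3 and MCM4, subunits of the replicative helicase, fell by 0.75 ± 0.19 and 0.69 ± 0.15 (adjusted p = 0.0371 and 0.0173 in limma). TYMS was called on 2 of its 3 probe sets and MCM4 on 1 of 4, with the weakest differences at -0.005 and -0.002. MCM4 did not pass on the mean of its probe sets. MKI67, the usual proliferation marker, lay at 6.70, 6.32, 6.05 and 6.20 early and at 5.39, 5.13, 5.64 and 5.48 mid-late; its groups did not overlap, but at -0.91 ± 0.26 it did not pass (adjusted p = 0.0581). The mean level of the 17 mitosis genes was 5.73 to 6.15 on the early arrays and 5.34 to 5.46 on the mid-late arrays, and that of the 19 replication genes 6.12 to 6.35 and 5.76 to 5.97. Without early replicate 4 and mid-late replicate 1, 4 mitosis and 2 replication genes were called, and in the 8 fits without 1 array 3 to 5 and 3 to 8. CCNB1 and AURKA passed in all of these fits and UHRF1 in the 8, while CCNB2, TYMS and MCM4 failed in 3 of the 8 each, early replicate 3 among them, and MCM3 in 6 (adjusted p = 0.0483 to 0.117).

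Of 11 measured inhibitors of the cell cycle 3 fell and 0 rose, beside 4.56% and 1.75% of all genes (median -0.01). GADD45B, a stress-responsive gene, lay at 7.84, 8.30, 8.88 and 8.57 early and at 6.86, 6.96, 7.04 and 7.22 mid-late, and fell by 1.38 ± 0.30 (adjusted p = 0.0141 in limma), with all 3 of its probe sets called lower. CDKN1A, which holds cells in G1, lay at 9.95, 9.56, 9.73 and 9.99 early and at 8.65, 8.94, 9.28 and 9.39 mid-late, and fell by 0.74 ± 0.18 (adjusted p = 0.0285 in limma). CDKN2C fell by 0.44 ± 0.10 (adjusted p = 0.0203 in limma). GADD45B failed without early replicate 3, CDKN1A in 5 and CDKN2C in 5 of the 8 fits, and 0 of the 3 passed without early replicate 4 and mid-late replicate 1, while CDKN1A passed on the arrays high in mitochondrial probe sets (adjusted p = 0.0428). None of 17 measured members of the BCL2 family and caspases was called in limma, beside 6.31% of all genes. At an unadjusted p under 0.05, 2 were higher and 3 lower.

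**Figure D3:**
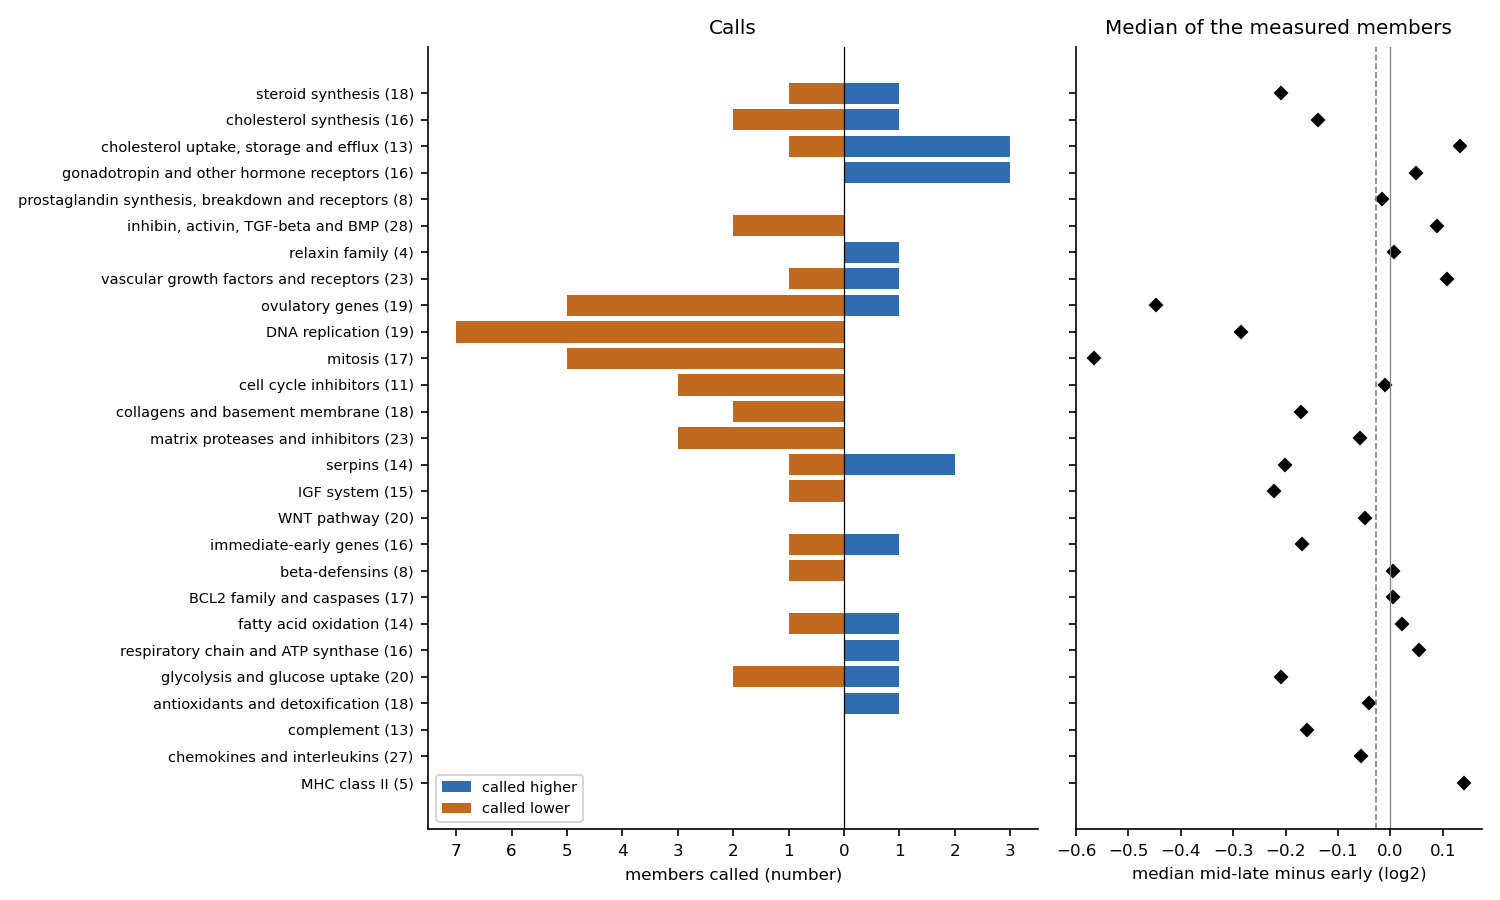
Members of 27 gene lists called in mid-late against early (left, number called higher in blue and lower in orange; measured members in brackets) and the median difference of each list's measured members (right, log2, black diamonds). The dashed line is the median of all genes tested, -0.03. The longest bars are the 7 replication, 5 mitosis and 5 ovulatory genes that fell.

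Among blood vessel genes KDR and the capillary marker EMCN rose. Of 23 measured vascular growth factors and receptors, KDR rose and PDGFA fell, beside 1.75% and 4.56% of all genes (median difference 0.11). KDR, the main signalling receptor for vascular endothelial growth factor, lay at 4.16, 4.02, 4.44 and 3.79 early and at 5.06, 5.66, 5.68 and 5.26 mid-late. The early arrays were near background and the groups did not overlap; KDR rose at least 2.16-fold (fitted difference 1.31 ± 0.25, adjusted p = 0.00796 in limma), and passed in all 8 fits without 1 array and without early replicate 4 and mid-late replicate 1. PDGFA, a platelet-derived growth factor, lay at 5.63, 5.07, 6.71 and 7.02 early and at 4.85, 5.00, 4.71 and 4.99 mid-late. Early replicates 3 and 4 were high and early replicate 2 lay just above the mid-late arrays, and PDGFA fell by 1.22 ± 0.30 (adjusted p = 0.0280 in limma), failing in 5 of the 8 fits, those without early replicate 3 or 4 or mid-late replicate 1, 3 or 4. PDGFA was called on 1 of its 2 probe sets, the other at -0.14. TEK, a receptor of angiopoietins, was at 0.53 ± 0.18 with separate groups and did not pass (adjusted p = 0.128), and FLT1, another receptor of vascular endothelial growth factor, had means of 3.88 and 4.25, under the 95th percentile of the viral probe sets.

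The 12 measured markers of endothelium had a mean level of 7.36 to 7.55 on the early arrays and 7.69 to 7.81 on the mid-late arrays, with none of the 12 under background. The KDR rise thus came with a higher mean level of endothelial markers, whose part in it was not tested. EMCN, endomucin of capillary and venous endothelium, was the only marker of the 12 called, beside 6.31% of all genes. It lay at 8.23, 8.16, 7.96 and 7.76 early and at 8.90, 9.12, 8.96 and 9.04 mid-late, a rise of 0.98 ± 0.23 (adjusted p = 0.0257 in limma), and passed in 2 of the 8 fits without 1 array, those without early replicate 1 or 2 (adjusted p = 0.0317 to 0.0795). EMCN did not pass without early replicate 4 and mid-late replicate 1 (adjusted p = 0.127, or 0.0138 on the arrays high in mitochondrial probe sets). PECAM1 lay at 9.52, 9.67, 9.87 and 9.43 early and at 9.39, 9.86, 9.89 and 9.94 mid-late, with overlapping groups (0.14 ± 0.15, adjusted p = 0.748), and VWF had means of 9.58 and 9.59.

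The lists of matrix genes held calls in the downward direction only. Of 18 collagens and basement membrane genes COL6A3 and COL12A1 fell (median -0.17), and of 23 matrix proteases and inhibitors PLAUR, PLAU and MMP7 fell (median -0.06), beside 4.56% of all genes called lower. Without early replicate 4 and mid-late replicate 1, 0 of the 18 and 1 of the 23 were called, and 0 of the 23 without mid-late replicate 3 or 4. COL6A3, a chain of collagen VI, lay at 11.49, 11.00, 10.42 and 10.85 early and at 9.57, 9.39, 9.89 and 10.32 mid-late, separate by 0.1, and fell by 1.15 ± 0.25 (adjusted p = 0.0138 in limma). COL1A1, of collagen I, lay at 12.27, 10.94, 11.48 and 11.39 early and at 10.84, 10.95, 10.98 and 11.18 mid-late. Early replicate 1 was the highest and early replicate 2 lay inside the mid-late range, and COL1A1 did not pass (-0.53 ± 0.24, adjusted p = 0.284). MMP2 lay at 9.64, 8.84, 8.27 and 8.61 early and at 8.85, 8.91, 9.26 and 9.25 mid-late with overlapping groups (adjusted p = 0.750). TIMP1, an inhibitor of matrix proteases, was among the brightest genes, at 13.82, 13.85, 13.83 and 13.91 early and at 14.04, 13.84, 13.80 and 13.86 mid-late (95% interval of the difference -0.12 to 0.19). COL6A3 passed in all 8 fits without 1 array but not without early replicate 4 and mid-late replicate 1 (adjusted p = 0.0853, or 0.0620 on the arrays high in mitochondrial probe sets). COL12A1 passed in 2 of the 8, those without early replicate 2 or mid-late replicate 4, and MMP7 in 2, those without early replicate 1 or mid-late replicate 2. MMP7 was called on 1 of its 4 probe sets, whose differences ran from -0.47 to 0.06.

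IGFBP4, which binds insulin-like growth factors, was the only call among 15 genes of the IGF system, beside 6.31% of all genes (median -0.22). It lay at 11.64, 10.94, 11.15 and 11.60 early and at 9.88, 10.39, 10.36 and 10.52 mid-late, with separate groups, and fell by 1.05 ± 0.19 (adjusted p = 0.00510 in limma), passing in all 8 fits without 1 array but not without early replicate 4 and mid-late replicate 1 (adjusted p = 0.0558, or 0.0307 on the arrays high in mitochondrial probe sets). IGF1, IGF2 and IGF1R were at -0.51 ± 0.30, -0.33 ± 0.19 and -0.59 ± 0.27 and did not pass (adjusted p = 0.481, 0.453 and 0.293). Of 16 immediate-early genes 1 rose and 1 fell, beside 1.75% and 4.56% of all genes (median -0.17). ZFP36, which speeds mRNA decay, rose from 7.16 ± 0.78 (SD, n = 4) to 8.85 ± 0.24 (adjusted p = 0.00675 in limma). FOSL2, part of the AP-1 transcription factor, fell by 0.80 ± 0.20 (adjusted p = 0.0288 in limma), called on 1 of its 2 probe sets, the other at -0.50. ZFP36 passed in all 8 fits without 1 array, FOSL2 in 2 of them, those without early replicate 2 or mid-late replicate 2, and neither passed without early replicate 4 and mid-late replicate 1, while both passed on the arrays high in mitochondrial probe sets.

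The 3 lists of immune genes held no calls, beside 6.31% of all genes. Of 27 chemokines and interleukins, 13 complement genes and 5 genes of MHC class II, 0 passed in limma, with 1 higher and 3 lower at an unadjusted p under 0.05 over the 3 lists. None of 13 measured markers of monocytes and macrophages passed either (2 lower at an unadjusted p under 0.05). Their mean level was 6.42 to 6.58 on the early arrays and 5.67 to 6.86 on the mid-late arrays. CD68, a lysosomal marker of macrophages, lay at 7.64, 7.60, 7.48 and 7.63 early and at 6.24, 7.11, 7.66 and 7.53 mid-late. The early arrays were alike, mid-late replicates 1 and 2 lay below them and mid-late replicates 3 and 4 at their level (adjusted p = 0.477). KLRD1, a receptor of natural killer cells, fell by 0.52 ± 0.12 (adjusted p = 0.0249 in limma), the only call among 6 markers of T and NK cells, beside 6.31% of all genes. It was called on 1 of its 4 probe sets and passed in 2 of the 8 fits without 1 array, those without early replicate 1 or 2. None of 8 prostaglandin genes and 20 genes of the WNT pathway passed in limma, beside 6.31% of all genes (unadjusted p under 0.05: 0 and 1 higher, 1 and 0 lower). WLS, which carries WNT proteins, is not on that list.

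The mid stage, days 7 to 8, showed how much of each change was present by then. These comparisons share arrays with mid-late against early, and all 4 mid arrays were low in the mitochondrial probe sets, so the values are set side by side only. Mid against early had 191 calls (0.362%), mid-late against mid 6 (0.0114%) and late against mid-late 6 (0.0114%). The mid mean lay between the early and mid-late means for 29 of the 30 genes with the largest changes, with PTX3, TMPRSS7 and ENPP3 under background at both mid and mid-late and HTR2B under it at early. The exception was WLS, whose mid level of 10.75 ± 0.76 exceeded the mid-late one of 10.47 ± 0.38. The 30 genes were chosen for wide gaps between early and mid-late, which makes a mid mean inside the gap likely. Of the 71 named genes called in mid-late against early, 8 were also called in mid against early and 0 in mid-late against mid or in late against mid-late. The 8 were CDKN1A, ENPP3, F3, IL11RA, LCAT, PFKFB3, PTX3 and TMPRSS7.

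F3 had nearly reached its mid-late level by the mid stage. It was at 6.03 ± 0.65 (SD, n = 4) at mid, where it fell by 2.53 ± 0.35 from early (adjusted p = 0.00582 in limma), and at -0.31 ± 0.35 from mid to mid-late (adjusted p = 0.941). PTX3 and TMPRSS7 had mid means of 4.00 ± 0.52 and 3.52 ± 0.32, under background as at mid-late. CYP19A1 and LCAT were likewise near their mid-late level at mid, at 11.19 ± 0.85 and 8.47 ± 0.20. FSTL3 and SERPINA4 had covered 38.8% and 39.1% of the difference at mid. HTR2B was at 5.13 ± 0.89 at mid and at 7.20 ± 0.50 at late, against 7.26 ± 0.47 at mid-late. FSTL3 was at 9.01 ± 0.24 at mid, 7.91 ± 0.39 at mid-late and 7.14 ± 0.36 at late, and neither step passed alone (-1.10 ± 0.21 and -0.77 ± 0.21, adjusted p = 0.148 and 0.296).

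At the late stage, days 14 to 16, RLN2 was at 12.96 ± 0.19, 1.08 ± 1.20 from mid-late (adjusted p = 0.987 in limma). Every late array of RLN2, at 12.75 or more, lay above every mid-late array, at 12.43 or less. The SE takes in the very-late stage, where the SD of RLN2 was 3.62. BTC was at 4.83 ± 0.43 at late, -1.18 ± 0.37 from mid-late, and PFKFB3 at 3.82 ± 0.23; neither step passed (adjusted p = 0.451 and 0.235). DEFB119 was at 4.20 ± 0.40 at late, under the 95th percentile of the viral probe sets (step -1.61 ± 0.32, adjusted p = 0.105). CCNB1 was at 4.85 ± 0.29 and HSD3B2 at 9.35 ± 1.14, each step not past the test (adjusted p = 0.167 and 0.0816). At the very-late stage CYP19A1 was at 6.24 ± 0.70, below its early level, and LCAT and KDR were at 6.73 ± 0.17 and 4.29 ± 0.32, near their early means of 7.05 and 4.10.

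**Figure D4:**
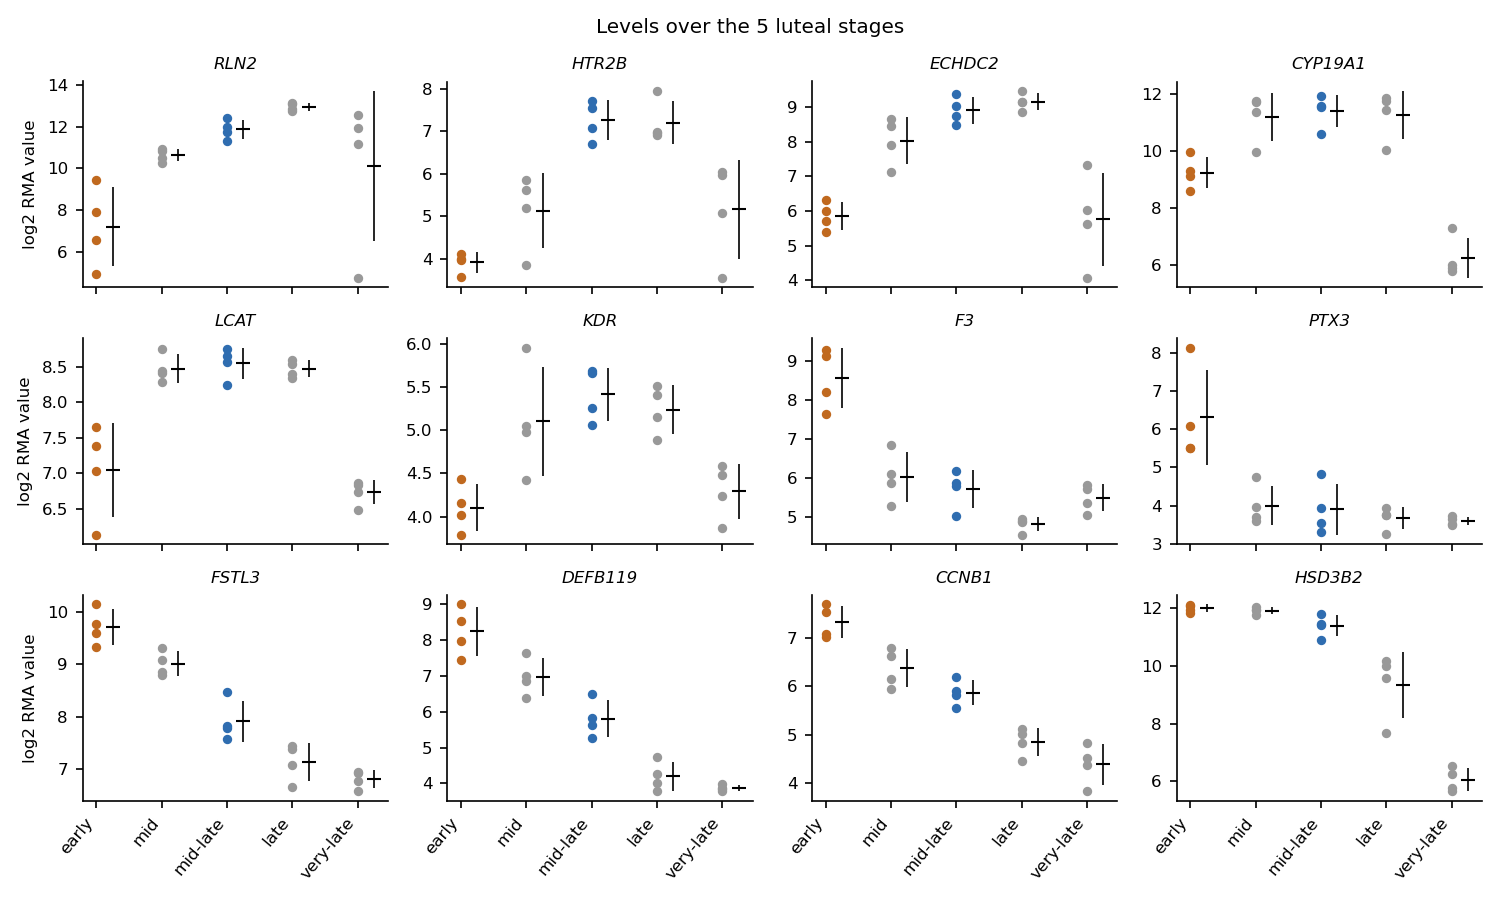
Log2 RMA level (vertical axis, its own scale in each panel) of 12 genes at the 5 luteal stages; points are arrays, orange for early and blue for mid-late, and the black mark beside them is the mean with its SD (n = 4). RLN2, HTR2B, ECHDC2, CYP19A1, LCAT and KDR are higher at mid-late than early on every array, and F3, PTX3, FSTL3, DEFB119 and CCNB1 lower, all called; HSD3B2 is lower without passing the test.

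The largest changes were also set against the choice of arrays. Of the 30 genes, 19 passed in all 8 fits that left out 1 array, 18 passed without both early replicate 4 and mid-late replicate 1, and 26 on the arrays high in mitochondrial probe sets. RLN2 ranged from 3.91 to 5.41 over the 8 fits, the highest without early replicate 2 and the lowest without early replicate 3. SERPINA4 ranged from 3.48 to 4.95 and PTX3 from -2.72 to -1.80, its weakest value without early replicate 4. HTR2B, ECHDC2 and F3 moved less, from 3.20 to 3.55, 2.90 to 3.21 and -3.15 to -2.61. The direction of these genes was fixed by the choice of genes with separate groups and shows no stability.

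**Figure D5:**
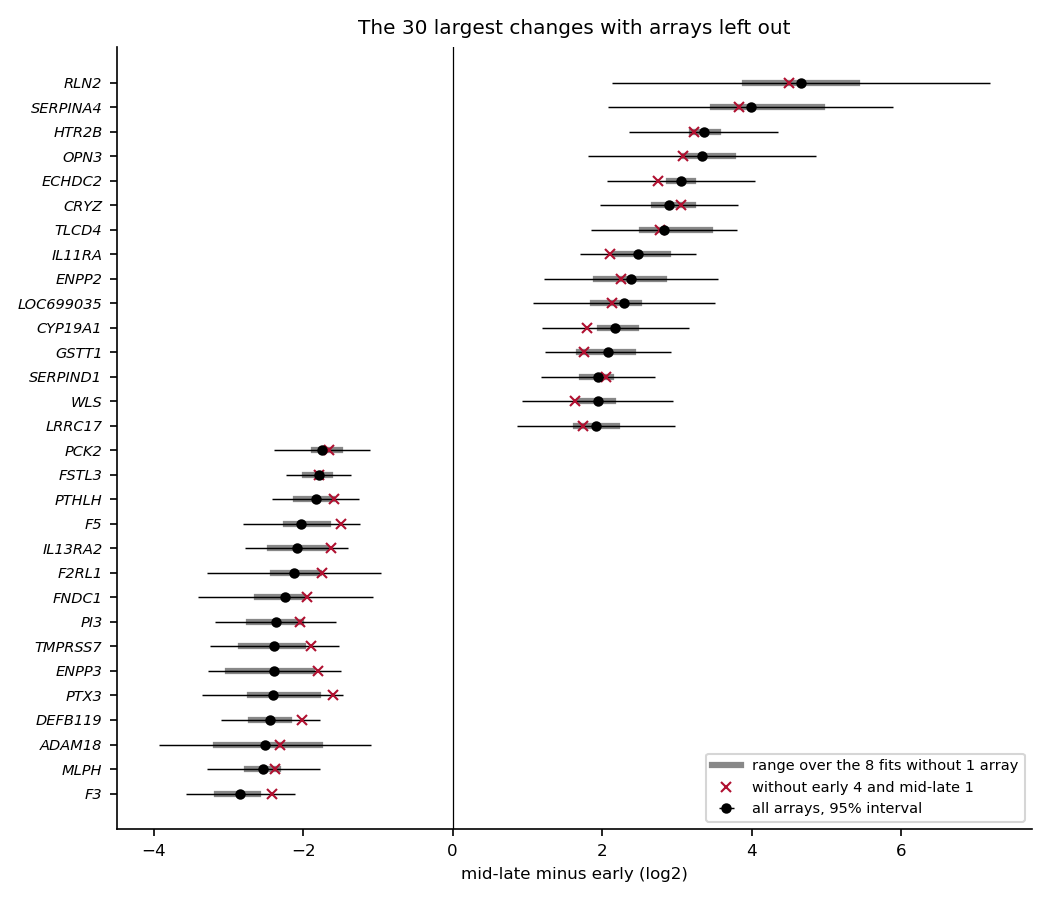
Mid-late minus early difference (log2, horizontal axis) of the 30 genes with the largest changes. Black circles with thin lines are the fitted values with their 95% intervals, grey bars span the 8 fits that each left out 1 array, and red crosses are the values without early replicate 4 and mid-late replicate 1. The widest intervals are those of RLN2 and SERPINA4.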

How the data were processed

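Gene expression was measured on 20 Affymetrix rhesus arrays, 1 corpus luteum each, 4 per luteal stage, and the deposited values are the authors' log2 expression per probe set after RMA, per the submitters' processing notes; the RMA software's version and chip definition are not given in the sources used here. RMA sets all arrays to one distribution, so a shift shared by most genes cannot be seen. The 8 arrays compared were taken by title. limma 3.58.1 in R 4.3.3 fitted 1 mean per stage on all 20 arrays, with 1 spread per probe set over the 5 stages, and tested mid-late minus early. The 158 array controls were left out, no filter on dim probe sets was used, and p-values were adjusted by the Benjamini-Hochberg method over 52707 probe sets. All adjusted p-values are two-sided, from limma, and called means under 0.05.

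Genes were named through the platform annotation with current symbols. Of the probe sets 24956 had 1 symbol, 361 several and 27390 none. A gene was taken at its brightest probe set over the 20 arrays, which gave 14132 genes. Named genes were the 15 largest rises and 15 largest falls among genes called at 2-fold or more with stages that did not overlap, up to 4 called members of each list, and 20 fixed genes, among which CYP11A1, LHCGR, VEGFA and PTGFR had no probe set of 1 symbol. The members and lists were chosen with earlier results of these data known. A gene with a stage mean under the 95th percentile of the viral probe sets is given a bound beside or in place of its fitted difference. The bound sets the brighter stage mean against that percentile and leaves out the sampling error of the mean. The script was tested on simulated data. Equal replicate numbers did not pair the arrays. Alternatives covered scaling, the dim filter, the prior, array weights, a replicate block, the choice of arrays and of probe sets. The number of arrays limits the precision.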

Additional observations from a re-analysis of the deposited data

Results flagged for a closer look

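In 9 of 166 groups of 4 arrays tested, the highest or lowest array stood farther from its nearest neighbour than Dixon's 95% limit allows, taking that gap as a share of the group's range. Chance alone flags about 1 in 20 groups. Among the falls, the mid-late array apart from the other 3 was replicate 4 for ADAM18, at 5.17 (ratio 0.952), replicate 3 for the spindle kinase AURKA, at 4.72 (0.971), replicate 1 for factor V, F5, at 4.34 (0.875), and replicate 2 for the phospholipid enzyme LPCAT3, at 8.42 (0.844). Mid-late replicate 2 was apart for ZFP36, at 8.48 (0.910), and mid-late replicate 1 for PECAM1, at 9.39 (0.855). At the early stage the array apart was replicate 2 for the cyclin CCNA2, at 5.31 (0.886), replicate 1 for the matrix protease MMP7, at 7.92 (0.942), and replicate 3 for PCK2, at 7.49 (0.879). AURKA, F5, PCK2 and ZFP36 stayed called when the array that stood apart was left out. The calls of LPCAT3 and MMP7 also held without it, while those of ADAM18 (mid-late replicate 4) and CCNA2 (early replicate 2) did not.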

How the results depend on the processing

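Of 52707 probe sets 1964 were called in mid-late against early. The count was 2392 without dim probe sets, 1942 after cyclic loess between arrays, 1841 after median centring, 1627 with a trended robust prior and 2860 on the 8 arrays alone. It was 3758 with array weights, 3197 without the very-late arrays, 1178 with 1 probe set per gene (which tested fewer), 528 at an adjusted p under 0.01 and 400 among changes of at least 2-fold. With a term for the mitochondrial probe sets it was 2279, and on the arrays high in them 1363. Without early replicate 4 and mid-late replicate 1, an alternative chosen after seeing the data, it was 617. Leaving out 1 array gave 806 to 1826. The fits that left out arrays held fewer samples; for the other settings the cause was not tested. None of the 71 named genes called in the main comparison changed its direction under these alternatives, while ABCA1 and TIMP1, not called, took both signs. For genes with separate groups, leaving out arrays could not change the direction. Called genes that were not named were not followed through all of the alternatives. The balance of called probe sets was 855 higher and 1109 lower, but 1530 and 1330 on the 8 arrays and 748 and 615 on the arrays high in mitochondrial probe sets. Replicate numbers shared by the stages did not pair the arrays: the deviations of same-numbered arrays correlated at -0.208 to 0.01, and a replicate block gave 1733 calls. Over the alternatives of the 83 named genes 1448 values stayed on the same side of the threshold, 283 no longer passed and 9 newly passed. Low signal limits HTR2B, KDR, PFKFB3, PTX3, ENPP3, TMPRSS7, FNDC1, CCNA2, FGF9 and AADAC, which have a stage mean within background, and 4 arrays per stage limit every comparison.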

Other observations

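Genes chosen after their values were seen added to the groups described. Picked by eye among the 158 genes called at 2-fold or more, 8 genes of dividing cells that the lists did not hold fell, and each was also called without early replicate 4 and mid-late replicate 1. MELK, a kinase of cycling cells, fell by 1.36 ± 0.17 (SE, n = 4 per stage, adjusted p = 0.000945 in limma), TRIP13, a checkpoint ATPase, by 1.28 ± 0.16, NCAPG, a subunit of condensin, by 1.26 ± 0.22, and KIF2C, a kinesin of the centromere, by 1.21 ± 0.17. CDKN3, PIMREG, CENPW and GTSE1 fell by 1.24 ± 0.20, 1.19 ± 0.20, 1.03 ± 0.16 and 1.00 ± 0.18. MELK lay at 5.90, 6.58, 6.04 and 5.89 on the early and at 4.42, 4.92, 4.93 and 4.71 on the mid-late arrays, with no overlap. In the other direction CEP192 and CENPJ, of the centrosome, rose by 1.51 ± 0.27 and 1.28 ± 0.27 (adjusted p = 0.00531 and 0.0123 in limma), and CEP192 was also called without the pair of arrays.

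Signal molecules and receptors outside the lists moved in both directions. FGF9, a fibroblast growth factor, lay at 4.65, 4.84, 3.52 and 3.64 early and at 6.27, 5.21, 6.06 and 6.40 mid-late, and rose at least 3.21-fold from an early mean under background (adjusted p = 0.00480 in limma). AGTR1, an angiotensin II receptor, rose by 1.66 ± 0.44 (adjusted p = 0.0409), NGFR, a receptor of neurotrophins, by 1.52 ± 0.30 (adjusted p = 0.00903), and ACKR1, a chemokine-binding receptor of venular endothelium, by 1.76 ± 0.38 (adjusted p = 0.0145). OSMR, the receptor of oncostatin M, lay at 10.30, 10.43, 10.99 and 10.79 early and at 8.99, 9.63, 9.59 and 9.69 mid-late, and fell by 1.15 ± 0.19 (adjusted p = 0.00309 in limma), also called without early replicate 4 and mid-late replicate 1. LIF, a cytokine of the same family, fell by 1.57 ± 0.39 (adjusted p = 0.0329). FGF9, AGTR1, NGFR, ACKR1 and LIF did not pass without those arrays (adjusted p = 0.0529, 0.176, 0.0809, 0.0891 and 0.104). The water channel AQP11 lay at 6.57, 7.09, 7.78 and 7.37 early and at 5.45, 5.86, 5.46 and 5.70 mid-late, and fell by 1.58 ± 0.20 (adjusted p = 0.000945 in limma).

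A few large falls had overlapping stages and were left out of the largest changes for that reason. AADAC, an esterase of lipid metabolism, lay at 10.16, 3.44, 7.25 and 9.10 early and at 4.08, 4.72, 3.19 and 3.27 mid-late. Early replicate 2 lay within the mid-late range and under background, while early replicates 1 and 4 were far above the mid-late arrays. The early mean stood 9.10-fold above background and the mid-late mean was under it (adjusted p = 0.0289 in limma). Early replicate 2 being under background, that is no lower bound on the fall. TFPI2, an inhibitor of serine proteases, lay at 7.86, 6.81, 9.06 and 8.66 early and at 4.94, 7.73, 4.73 and 4.92 mid-late (-2.51 ± 0.56, adjusted p = 0.0181 in limma). Neither passed without early replicate 4 and mid-late replicate 1 (adjusted p = 0.154 and 0.144).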
